A study of Homo sapiens with 8 samples.

Results

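The nuclear genes of the respiratory complexes were examined in TeloHAEC, a telomerase-immortalised human aortic endothelial line, as rows of the deposited gene table chosen by symbol alone. Symbols made of NDUF, a letter out of A, B, C, S and V, and digits stood for complex I, those starting with UQCR for complex III, COX4 to COX8 for complex IV and ATP5 for complex V. The rule took 82 of 34415 rows: 37 in complex I, 9 in complex III, 17 in complex IV and 19 in complex V. It left out 8 rows with a hyphen, which are antisense, divergent or readthrough loci, and 0 rows with a pseudogene ending. Estradiol, the main circulating estrogen, was supplied to the cells of 4 libraries and not to those of 4 control libraries, and palmitic acid, a saturated fatty acid, was in the medium of both groups according to the sample titles. The treatment field of the estradiol samples names only the palmitic acid, so the groups rest on the titles. Both groups are labelled as wild type and as the same line. No source used here gives doses or exposure times. The labels do not say whether replicates were separate cultures, so the spread behind each p-value may be technical. Levels are FPKM, fragments scaled to the length of the gene and to the fragments counted in the library, and values of single libraries are given in the order of replicates 1 to 4.

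Mitochondria make most of their ATP by passing electrons along a chain of enzyme complexes in the inner membrane. Complex I takes electrons from NADH, complex III passes them from ubiquinol to cytochrome c, complex IV hands them to oxygen, and complex V, the ATP synthase, uses the proton gradient that the others build. Part of each is encoded in mitochondrial DNA and the rest in the nucleus, so assembly needs transcripts from both genomes. Endothelial cells are known to lean on glycolysis for much of their ATP, while their respiratory chain also serves redox balance and signalling.

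Recovered depth ran from 33421051 to 39899258 reads per library. Of the endothelial markers, 9 of 10 reached a mean of 1 FPKM, VWF being the exception with a range of 0.231 to 0.363. Of the markers of other cells, 0 of 4 leukocyte, 0 of 3 epithelial, 0 of 4 fibroblast, 0 of 3 smooth muscle and 0 of 4 striated muscle genes did, and CD3E, LUM and DES were listed at 0 throughout. Estradiol replicate 4 and control replicate 3 stood apart from the other 6 libraries along GC content. Across the 10526 tested genes with a GC value, how far each gene lay from its median over the libraries ranked against its GC content with rho = -0.857 in estradiol replicate 4 and -0.876 in control replicate 3, and with rho from -0.341 to 0.658 in the rest. The labels name no batch, so results are given with and without this pair, and its part in them was not tested otherwise.

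Of the 82 members, 75 reached a mean of 1 FPKM over the 8 libraries and entered the gene test. Their median level was 41.1 FPKM against 8.84 for all 10720 genes tested, and 66 of the 75 lay above that overall median. The tested members ran from NDUFC2 at 3.66 FPKM to ATP5F1B at 249.7. They were short genes, with a median length of 1215 bases in the authors' scaling, against 4023 for all genes tested, while their median GC content of 47.9% was close to the 48.3% of all genes. Of the 7 members under the filter, 3 were listed at 0 in every library. COX8C, COX6B2 and ATP5MGL had 0 to 6 reads per library, and ATP5F1E had 39 to 86.

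**Figure D1:**
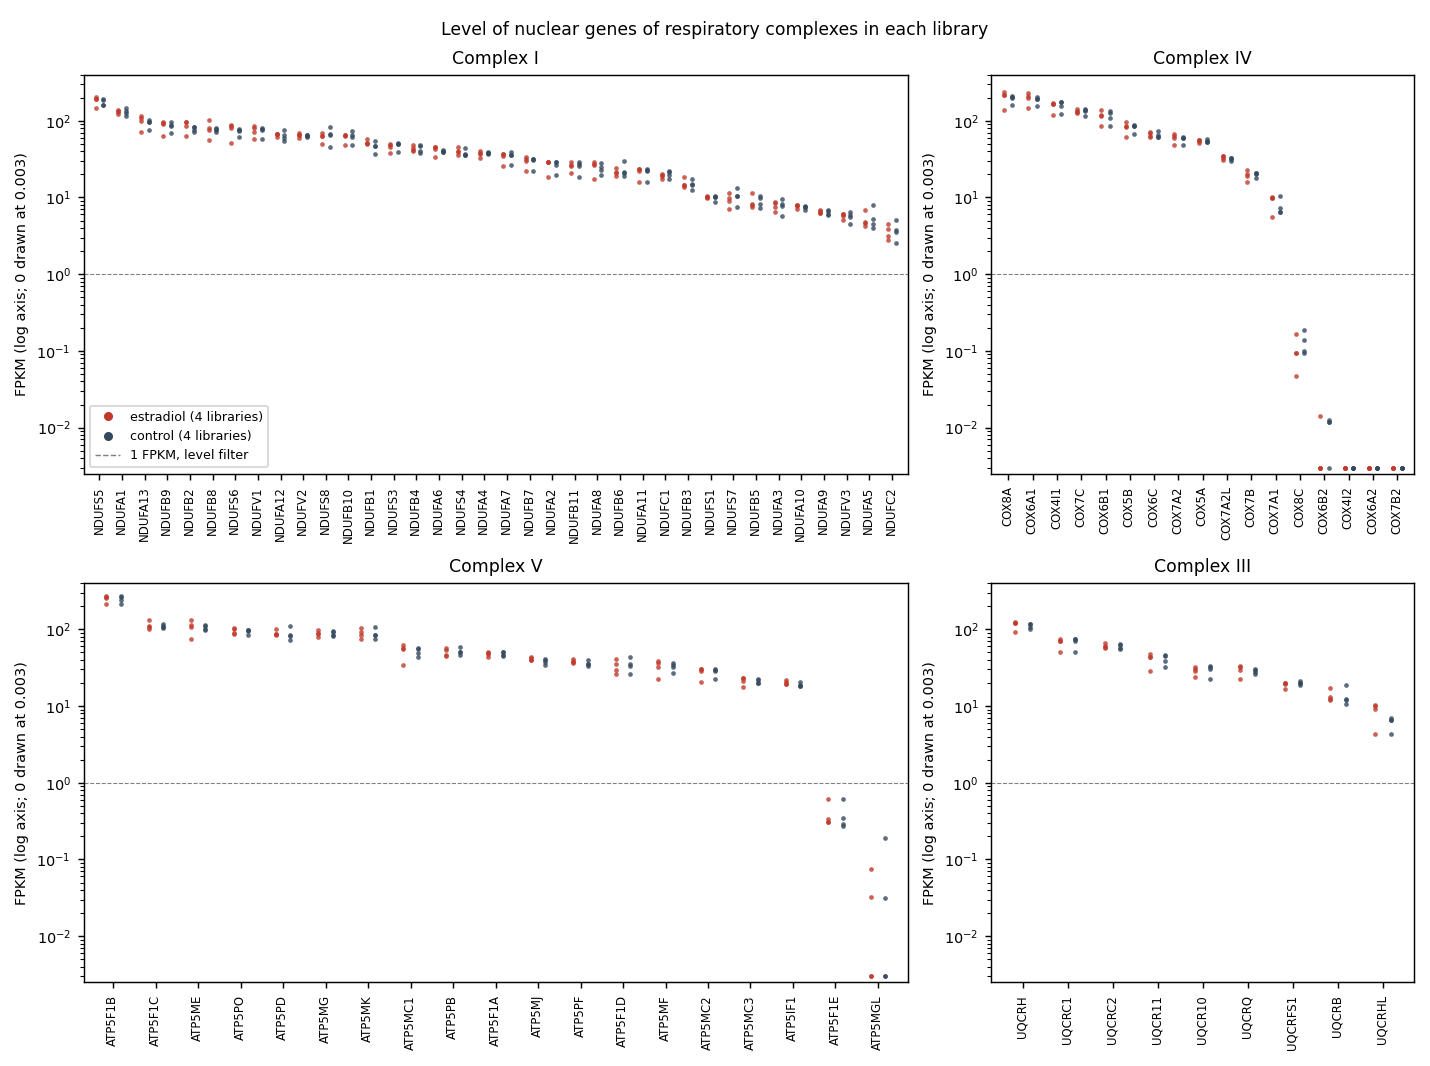
Level of 81 of the 82 members in each of the 8 libraries (y axis, FPKM on a log axis, values of 0 drawn at 0.003; x axis, genes ordered by mean level in each complex). Red points are the 4 estradiol libraries and dark points the 4 control libraries; the dashed line marks 1 FPKM, and the 7 members below it belong to complexes IV and V.

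Complex IV held the highest typical level and complex III the lowest. The median tested member of complex IV stood at 74.5 ± 8.67 FPKM in estradiol and 73.3 ± 2.54 in control libraries (SD, n = 4 each). For complex V it was 48.8 ± 4.56 FPKM in estradiol and 48.4 ± 3.09 in control libraries, for complex I 33.1 ± 5.07 in estradiol and 34.4 ± 3.13 in control libraries, and for complex III 29.7 ± 4.06 in estradiol and 30.5 ± 2.94 in control libraries. Within a library the ratio of the complex IV median to the complex I median was 2.26 ± 0.129 in estradiol and 2.14 ± 0.135 in control libraries, and it lay between 2.01 and 2.43 in all 8. The ratio for complex V was 1.49 ± 0.148 in estradiol and 1.41 ± 0.0956 in control libraries. In every library the order was therefore IV, V, I and III, with the medians of I and III close together and a ratio of III to I between 0.824 and 0.951. Members of a complex share libraries and are not replicates, so the order was not tested.

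The order of levels between genes leans on the gene length the authors divided by. Lengths recovered from the FPKM values exceeded 2 times the median GENCODE coding transcript for 25 of the 75 tested members. With that transcript length in place of the authors' length, an alternative chosen after seeing the data, the medians were 122.7 for complex IV, 87.7 for V, 69.9 for III and 49.0 for I, so complexes IV and V kept their places and I and III changed theirs. That transcript length is a median over all transcripts of a gene listed as coding, whatever their length. It need not be the length of the expressed form, and which of both lengths is nearer to that was not tested. UQCRB, a small subunit of complex III, had the highest ratio of both lengths, with 8710 bases against 645 and thus a level of 13.5 or 182.9 FPKM. Ratios of the FPKM of one gene between libraries are free of this choice. The filter at a mean of 1 FPKM and the fold changes of FPKM + 1 are not. With the transcript length UQCRHL, for instance, would stand at 0.918 in place of 7.25 FPKM, under the filter.

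The matrix arm of complex I, where NADH is oxidised and electrons run to ubiquinone, spanned a wide range. NDUFV1, which binds the flavin that accepts electrons from NADH, measured 81.5, 85.1, 71.3 and 57.3 FPKM in estradiol libraries, against 81.1, 76.7, 57.6 and 79.1 in control libraries. Its partner NDUFV2, an iron-sulfur subunit, held a narrower spread, between 59.3 and 68.4 FPKM. NDUFV1 was lowest in estradiol replicate 4 and control replicate 3 (57.3 and 57.6), and NDUFV2 was highest in estradiol replicate 4. NDUFS8, which carries iron-sulfur clusters near the quinone site, measured 68.7, 63.5, 63.0 and 50.2 FPKM in estradiol libraries, against 82.8, 65.4, 45.1 and 67.8 in control libraries. NDUFS3, a structural core subunit, ran from 38.4 to 51.9 FPKM. Lower levels were listed for NDUFS1, the largest core subunit and holder of several iron-sulfur clusters, with 8.81 to 10.5 FPKM, and for NDUFS7, which carries the last cluster before the quinone, with 7.09 to 13.2 FPKM. NDUFS1 is also the member with the longest length, 11774 bases, and its 3816 to 4772 reads were more numerous than the 1246 to 2401 of NDUFS8.

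With the authors' lengths, accessory subunits held the top of complex I. With the median transcript length NDUFV1 would lead at 164 FPKM, against 162 for NDUFS5. NDUFS5, an accessory subunit on the intermembrane side, measured 190.3, 204, 189.7 and 148 FPKM in estradiol libraries, against 159.7, 189, 159 and 192 in control libraries. NDUFA1, a small membrane-arm subunit, ranged from 114 to 146 FPKM, and NDUFA13, also known as GRIM-19, from 71.1 to 114 FPKM. NDUFA13 was lowest in the same pair of libraries, at 71.1 in estradiol replicate 4 and 76.3 in control replicate 3, while NDUFA1 showed no such gap, at 121.6 and 145.7. NDUFC2, a membrane-arm subunit, was the lowest tested member, at 3.14, 2.79, 3.83 and 4.56 FPKM in estradiol libraries, against 3.81, 3.52, 5.11 and 2.55 in control libraries. Its annotated span lies within the readthrough locus NDUFC2-KCTD14, whose own row was at 0 in all libraries, and how reads shared by the overlapping loci were counted was not tested. NDUFA4 carries a complex I symbol, although it is now regarded as a subunit of complex IV, and it measured 36.8 ± 3.19 FPKM in estradiol and 37.9 ± 1.28 in control libraries (SD, n = 4 each). Counted in complex IV, it brought that complex's median over the 8 libraries to 65.6 FPKM, against 73.9 without it.

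In complex III the hinge protein gene UQCRH, which helps cytochrome c dock, led with 120.4, 119.7, 125 and 91.5 FPKM in estradiol libraries, against 99.4, 117, 108 and 116 in control libraries. The core proteins UQCRC1 and UQCRC2, which form the matrix-facing part, ranged from 50.7 to 75.5 FPKM and from 54.5 to 65.5 FPKM. UQCRC1 stood at 50.7 FPKM in estradiol replicate 4 and 50.9 in control replicate 3 and at 69.4 or more in the other 6 libraries, whereas UQCRC2 showed no such split. UQCRFS1, the Rieske iron-sulfur protein that takes the first electron from ubiquinol, measured 20.2, 19.3, 19.8 and 16.8 FPKM in estradiol libraries, against 20.03, 20.1, 18.7 and 21.2 in control libraries.

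Complex IV exists in isoforms, and these cells listed the widely expressed form of each subunit. COX4I1, the common form of the subunit that regulates the enzyme in response to ATP, measured 163, 166, 172 and 118 FPKM in estradiol libraries, against 156, 173, 124 and 176 in control libraries, while COX4I2, the form induced by low oxygen in some tissues, was listed at 0 in all 8 libraries. COX6A1 measured 199, 228, 209 and 146 FPKM in estradiol libraries, against 191, 194, 156 and 203 in control libraries, and its heart and skeletal muscle counterpart COX6A2 was listed at 0 in all 8. COX8A, the smallest subunit, measured 235, 216, 213 and 136 FPKM in estradiol libraries, against 201, 204, 162 and 210.0 in control libraries. Its alternative form COX8C had 1 to 4 reads per library, or 0.0469 to 0.186 FPKM. COX6B1 ranged from 85.8 to 137 FPKM, while COX6B2, a testis form, had 0 or 1 read per library, and COX7B from 16.0 to 22.8 FPKM, while COX7B2 was listed at 0. A count of 0 in these libraries allows up to 3 reads per library, by counting error alone.

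The subunit 7A genes were the exception, since both forms were present. COX7A2, the widespread form, measured 59.8 ± 8.35 FPKM in estradiol and 57.7 ± 6.04 in control libraries. COX7A1, known from heart and skeletal muscle, measured 9.90, 10.03, 9.94 and 5.54 FPKM in estradiol libraries, against 6.51, 7.33, 6.43 and 10.4 in control libraries. It rested on 73 to 141 reads and made up 8.59 ± 1.37% of the summed FPKM of COX7A1, COX7A2 and COX7A2L in estradiol libraries and 7.84 ± 1.43% in control libraries (SD, n = 4 each). The estradiol libraries clustered between 9.90 and 10.03 FPKM except replicate 4, and the control libraries between 6.43 and 7.33 except replicate 4 at 10.4, so the groups overlapped. The summed level of the 4 striated muscle markers was 0.133 to 0.410 FPKM in estradiol and 0.0859 to 0.215 in control libraries. COX7A2L, which joins complexes III and IV in supercomplexes, ranged from 29.8 to 34.7 FPKM. The share of COX7A1 leans on the authors' lengths, 340 bases for COX7A1, 1462 for COX7A2 and 3190 for COX7A2L. With the median transcript length the levels would be 6.90, 203 and 126 FPKM, and the share of COX7A1 would be smaller. COX7A2 had 2735 to 3656 reads.

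**Figure D2:**
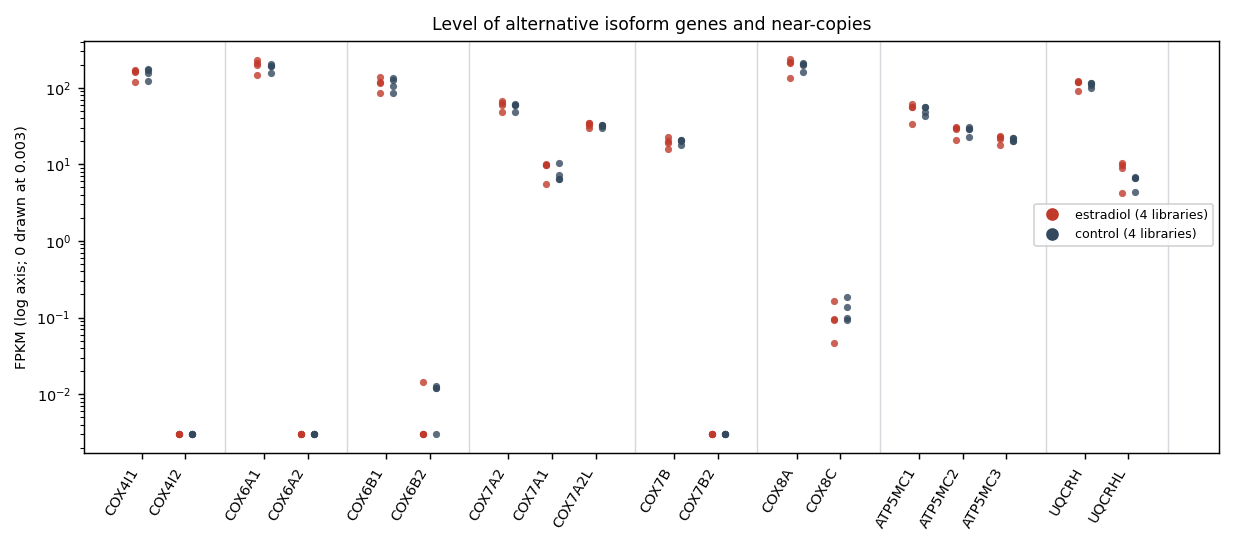
Level of genes that encode alternative forms of a subunit, and of the near-copy UQCRHL, in each library (y axis, FPKM on a log axis, values of 0 drawn at 0.003; x axis, genes grouped by subunit). COX4I2, COX6A2 and COX7B2 sit at 0 in all 8 libraries, while COX7A1 and the ATP5MC genes lie between 5.54 and 62.1 FPKM.

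The promoters of the most abundant complex IV genes are shown with that of the muscle form listed at 0, together with 2 further members that hold other motifs, because nuclear factors of the NRF1 and GABP type are known to bind promoters of respiratory genes. Each stretch runs from 220 bases before to 30 after the RefSeq start (GRCh38.p14), and capitals mark a match, on either strand, to the NRF1 motif GCATGCGC, the ETS motif CCGGAAG that GABP recognises, the YY1 motif AAGATGGCG or the TATA motif TATAAA. COX8A lies at chr11:63974400-63974649, plus strand, COX6A1 at chr12:120437893-120438142, plus strand, COX4I1 at chr16:85799475-85799724, plus strand, and COX6A2 at chr16:31428331-31428580, minus strand. ATP5PF, the coupling factor 6 gene, lies at chr21:25735025-25735274, minus strand, and overlaps the GABPA locus in the RefSeq annotation, and NDUFA8, an accessory subunit, lies at chr9:122159750-122159999, minus strand.
COX8A: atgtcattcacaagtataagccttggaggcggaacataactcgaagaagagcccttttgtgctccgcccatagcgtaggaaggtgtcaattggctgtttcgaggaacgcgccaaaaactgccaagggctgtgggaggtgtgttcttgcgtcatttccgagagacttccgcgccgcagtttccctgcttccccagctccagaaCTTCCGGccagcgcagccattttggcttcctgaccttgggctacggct
COX6A1: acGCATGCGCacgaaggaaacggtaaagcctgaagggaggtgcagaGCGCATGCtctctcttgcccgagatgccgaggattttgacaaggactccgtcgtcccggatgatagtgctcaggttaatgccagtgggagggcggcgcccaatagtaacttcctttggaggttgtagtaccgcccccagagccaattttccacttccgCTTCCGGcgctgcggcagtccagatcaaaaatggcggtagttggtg
COX4I1: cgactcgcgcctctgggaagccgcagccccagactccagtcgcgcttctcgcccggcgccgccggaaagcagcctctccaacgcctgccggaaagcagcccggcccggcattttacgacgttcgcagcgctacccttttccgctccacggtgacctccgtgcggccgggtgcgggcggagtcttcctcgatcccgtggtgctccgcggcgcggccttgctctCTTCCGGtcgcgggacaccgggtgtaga
COX6A2: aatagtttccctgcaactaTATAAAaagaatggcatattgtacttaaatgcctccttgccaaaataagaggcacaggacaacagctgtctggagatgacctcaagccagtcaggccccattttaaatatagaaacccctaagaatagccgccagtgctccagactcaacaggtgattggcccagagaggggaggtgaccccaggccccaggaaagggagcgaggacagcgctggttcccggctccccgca
ATP5PF: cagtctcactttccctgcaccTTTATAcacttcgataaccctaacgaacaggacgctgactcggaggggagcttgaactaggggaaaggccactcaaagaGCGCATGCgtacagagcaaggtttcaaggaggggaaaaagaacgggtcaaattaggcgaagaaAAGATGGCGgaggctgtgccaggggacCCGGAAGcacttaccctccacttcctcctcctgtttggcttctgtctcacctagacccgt
NDUFA8: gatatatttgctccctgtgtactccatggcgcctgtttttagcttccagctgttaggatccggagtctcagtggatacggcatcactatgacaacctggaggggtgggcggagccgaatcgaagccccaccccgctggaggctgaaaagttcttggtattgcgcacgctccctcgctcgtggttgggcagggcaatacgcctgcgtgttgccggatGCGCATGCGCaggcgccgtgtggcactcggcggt
In these letters COX8A, COX6A1 and COX4I1 each hold the ETS motif, read on the opposite strand, close to the start, and COX6A1 also holds the NRF1 motif at 2 places far upstream. COX6A2 holds a TATA motif far upstream. ATP5PF holds an ETS, a YY1 and an NRF1 motif, with a TATA motif on the opposite strand further up. NDUFA8 holds the NRF1 motif on both strands, in 1 overlapping run at the start.

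Promoters of 66 of the 82 members were matched in the RefSeq table, where each spans 250 bases before to 50 after the start. The 66 include COX6A2, COX6B2, COX7B2, COX8C and ATP5F1E, which were under 1 FPKM, while the set of expressed genes leaves such genes out. The ETS motif was found in 18 of the 66 (27.3%), against 10.7% of all 27305 promoters and 21.3% of the 8746 promoters of genes at a mean of 1 FPKM or more. By complex it was in 5 of 14 promoters of complex IV, 5 of 14 of complex V, 3 of 7 of complex III and 5 of 31 of complex I. The NRF1 motif was in 11 (16.7%), against 3.27% of all promoters and 5.97% of those of expressed genes, and the YY1 motif in 7 (10.6%), against 1.85% of all promoters and 4.51% of those of expressed genes. The counts depend on the motif's length: 10-letter forms, with GC before the NRF1 letters or G after the YY1 letters, were in 3 for NRF1 (4.55%, against 1.36% of all promoters and 2.42% of those of expressed genes) and in 6 for YY1 (9.09%, against 1.28% and 3.28%). The estrogen response element (GGTCA and TGACC with 3 bases between them) and the site of estrogen-related receptors TCAAGGTCA were in 0 of the 66. Their shares were 0.0659% and 0.359% of all promoters and 0.0114% and 0.114% of those of expressed genes. At such low shares 0 of 66 is no contrast. These matches describe letters in the window, and the absence of a match says nothing about binding. Members without an entry included ATP5F1B, ATP5F1D, ATP5MC3, ATP5MF, ATP5MGL, COX4I2, COX6C, COX7A1, NDUFA4, NDUFB5, NDUFB9, NDUFC2, NDUFS5, UQCRB and UQCRHL.

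The catalytic head of complex V was led by ATP5F1B, the beta subunit where ATP is formed. It measured 267, 255, 272 and 211 FPKM in estradiol libraries, against 242, 259.9, 215 and 275 in control libraries. The alpha subunit ATP5F1A, which alternates with beta in the ring of the head, measured 48.2, 49.6, 51.0 and 43.2 FPKM in estradiol libraries, against 45.8, 49.99, 45.4 and 51.2 in control libraries. The lengths behind these values were 6401 bases for ATP5F1A and 1759 for ATP5F1B, and the reads of both genes were closer than their FPKM, at 10609 to 13081 for ATP5F1A and 14220 to 19281 for ATP5F1B. ATP5F1C, the central stalk subunit, ranged from 100.2 to 131 FPKM and was highest in estradiol replicate 4 and control replicate 3. ATP5ME, a small subunit of the membrane part, ranged from 75.0 to 133 FPKM and was lowest in estradiol replicate 4.

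ATP5MC1, ATP5MC2 and ATP5MC3 encode the same mature subunit c of the proton-carrying ring, with different import sequences. ATP5MC1 gave 51.1 ± 3.10% of their summed FPKM in estradiol and 51.0 ± 1.252% in control libraries (SD, n = 4 each). ATP5MC2 gave 27.4 ± 0.816% in estradiol and 27.8 ± 1.49% in control libraries, and ATP5MC3 21.5 ± 2.39% in estradiol and 21.2 ± 1.45% in control libraries. The shares thus differed between the groups by less than their spread. Their order leans on the authors' lengths, 646 bases for ATP5MC1, 2850 for ATP5MC2 and 3430 for ATP5MC3. With the median transcript length the levels would be 66.1, 97.1 and 86.6 FPKM, so ATP5MC1 would be the lowest. Its reads were also the fewest, at 856 to 1450, against 2283 to 3458 for ATP5MC2 and 2383 to 3164 for ATP5MC3. ATP5IF1, the inhibitor that stops the enzyme from running backwards, measured 22.1, 20.7, 19.6 and 19.6 FPKM in estradiol libraries, against 20.8, 18.1, 18.8 and 18.2 in control libraries.

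ATP5F1E, which encodes the epsilon subunit of the central stalk, was far below its partners. It was listed at 0.311, 0.340, 0.310 and 0.614 FPKM in estradiol libraries, against 0.345, 0.293, 0.613 and 0.271 in control libraries, from 39 to 86 reads (exact permutation p = 0.686, two-sided). It was highest in estradiol replicate 4 and control replicate 3, and the groups overlapped. The other nuclear subunits of the head and stalk stood at 25.8 FPKM or more in every library. The annotated locus SLMO2-ATP5E overlaps ATP5F1E, its own row was at 0 in all libraries, and the length behind the ATP5F1E values was 3610 bases; whether overlap set this level was not tested. ATP5MGL had 0 to 6 reads per library (exact permutation p = 0.886), COX8C had an exact permutation p of 0.40 and COX6B2 of 0.486, so a difference in these was not detectable at this depth.

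No member passed the test of estradiol against control. Of the 75 tested members, 0 had an adjusted p under 0.05 (limma, two-sided, Benjamini-Hochberg over 10720 genes, lowest adjusted p 0.999989), beside 0.0% of all genes tested. At an unadjusted p under 0.05 there were 0 members, beside 0.243% of all genes. That share is far below the 5% that the threshold itself would give without any effect, and it was 3.88% without the pair of libraries. The fit of all 8 libraries thus called few genes of any kind, and 0 members is weak evidence of no change. No member had groups that did not overlap (0 of 75), beside 0.532% of all genes. Log2 fold changes of FPKM + 1 ran from -0.12 to 0.36, with a median of 0.01 against -0.00047 for all genes tested. Positive values were found for 49 of 75 members (65.3%), beside 49.5% of all genes. The 95% interval of 72 of the 75 members lay within 0.5 on the log2 scale in either direction. The same held for 10209 of all 10720 genes tested, so it is not particular to the members. The data thus bound most changes without showing that there was none.

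The complexes had like medians. The median log2 fold change was 0.01 in complex I (23 of 37 above 0), 0.02 in complex III (6 of 9), 0.02 in complex IV (9 of 12) and 0.02 in complex V (11 of 17). With 1 library left out the median of all members ran from -0.016 without control replicate 3 to 0.076 without estradiol replicate 4. The summed FPKM of complex IV was 1122 ± 148 in estradiol and 1101 ± 89.2 in control libraries, and that of complex I 1629 ± 164 in estradiol and 1600.0 ± 88.5 in control libraries (SD, n = 4 each). In bulk RNA a change in the number of cells of a kind and in the RNA per cell cannot be told apart.

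**Figure D3:**
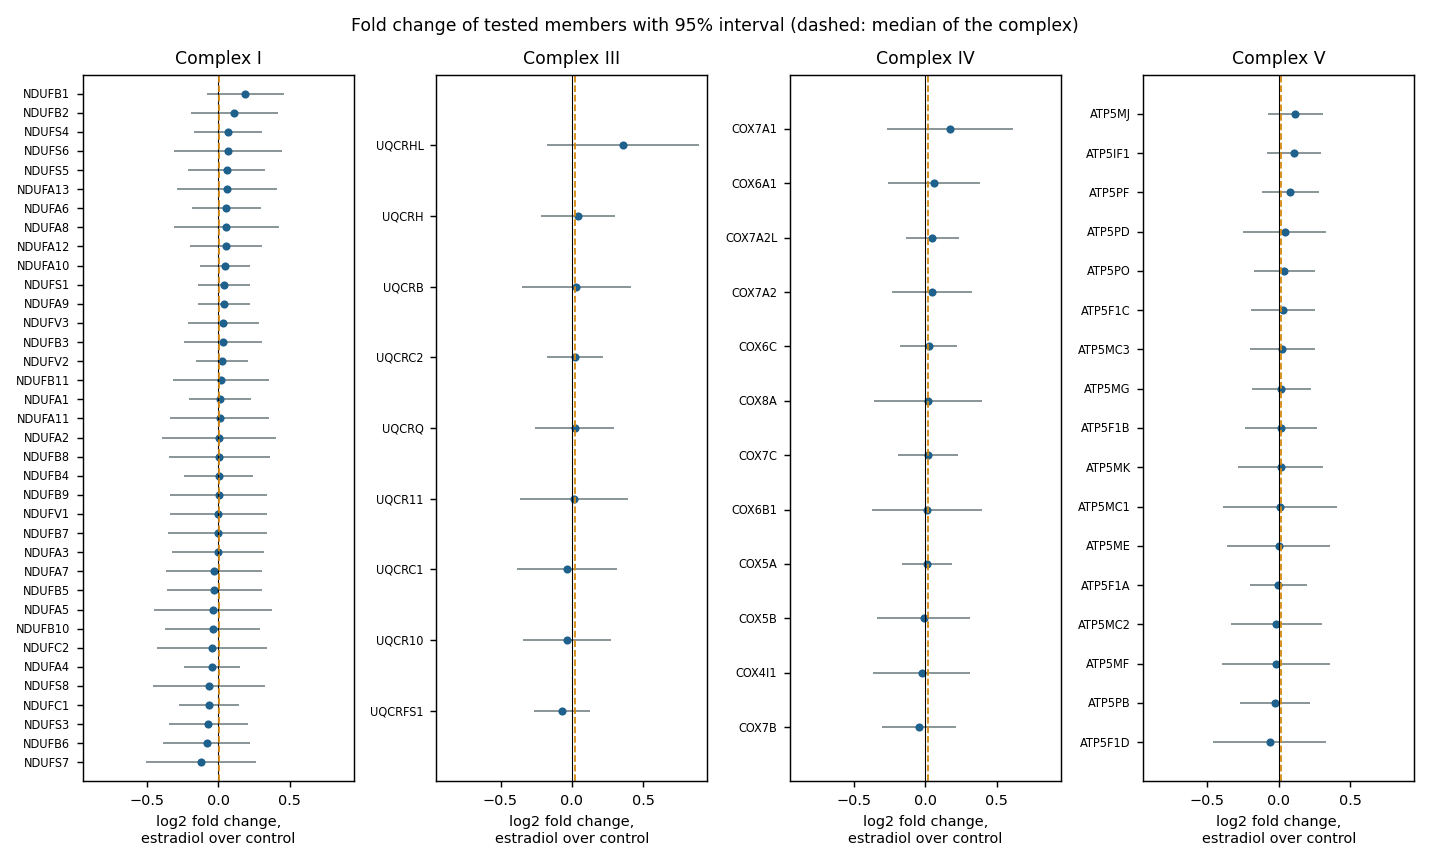
Log2 fold change of 74 of the 75 tested members, estradiol over control (x axis, log2 of FPKM + 1; y axis, genes by complex), with points for the estimate and lines for the 95% interval. The dashed line is the median of each complex over all its tested members, between 0.01 and 0.02, and every interval includes 0.

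The largest estimate belonged to UQCRHL, an intronless near-copy of UQCRH. It measured 9.05, 10.3, 9.94 and 4.30 FPKM in estradiol libraries, against 6.91, 6.57, 4.35 and 6.63 in control libraries, and did not pass (log2 fold change 0.36 ± 0.24 SE, 95% interval -0.17 to 0.89, limma adjusted p = 0.999989). The 3 estradiol libraries other than replicate 4 were above all control libraries, whereas estradiol replicate 4 and control replicate 3 were alike, at 4.30 and 4.35. It rested on 46 to 108 reads in estradiol and 45 to 75 in control libraries, over 276 bases. The GENCODE transcript of UQCRHL matches that of UQCRH over 515 aligned bases at 98.1% identity, and 34.9% of the 50-base windows in that stretch occur unchanged in UQCRH, so reads may be shared and its level is uncertain. UQCRHL made up 6.70 ± 1.52% of the summed FPKM of both genes in estradiol and 5.27 ± 1.08% in control libraries (SD, n = 4 each). UQCRH itself had a log2 fold change of 0.04 ± 0.12 SE, 95% interval -0.22 to 0.30.

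In the 6 libraries without the pair UQCRHL had the smallest p of the members. It then averaged 9.76 ± 0.642 FPKM in estradiol and 6.70 ± 0.184 in control libraries (SD, n = 3 each), with a log2 fold change of 0.48 ± 0.06 SE and a limma adjusted p of 0.265. Over all 19 alternatives its limma adjusted p ran from 0.168, with array weights, to 1. The log2 fold change was 0.61 without estradiol replicate 4 alone and 0.23 without control replicate 3 alone. In the 6 libraries 5 of 75 members had an unadjusted p under 0.05, beside 3.88% of all genes, and 9 had groups that did not overlap, beside 9.52%. With array weights, which let noisy libraries count less, 9 of 75 had an unadjusted p under 0.05, beside 8.28% of all genes. The count was 4 of 75 without estradiol replicate 4 alone, beside 0.784% of all genes, 1 of 75 without control replicate 3 alone, beside 1.71%, and 2 of 75 with a term for the pair, beside 3.27%. The others of the 5 in the 6 libraries were the complex I genes NDUFS6, NDUFB2, NDUFA6 and NDUFB1, with log2 fold changes of 0.16, 0.23, 0.14 and 0.22, and 0 members passed after adjustment.

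Other members with the smallest p also stayed far from the threshold. NDUFB1, a single-span subunit of the membrane arm, measured 49.9, 51.2, 51.1 and 58.4 FPKM in estradiol libraries, against 37.1, 46.6, 54.8 and 47.2 in control libraries (log2 fold change 0.19 ± 0.12 SE, 95% interval -0.08 to 0.46). ATP5MJ, a small membrane subunit of the synthase, measured 41.1 ± 1.91 FPKM in estradiol and 37.9 ± 2.87 in control libraries, with a log2 fold change of 0.12 ± 0.09 SE, 95% interval -0.08 to 0.31. ATP5IF1 had a log2 fold change of 0.11 ± 0.08 SE, 95% interval -0.08 to 0.30. For each the groups overlapped. On the negative side were UQCRFS1 with a log2 fold change of -0.07 ± 0.09 SE, NDUFC1, a small membrane subunit, with -0.07 ± 0.09, NDUFS7 with -0.12 ± 0.17 and NDUFB6 with -0.08 ± 0.14. NDUFB6, a membrane-arm subunit, turned to 0.046 without control replicate 3, where it was highest at 29.9 FPKM.

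**Figure D4:**
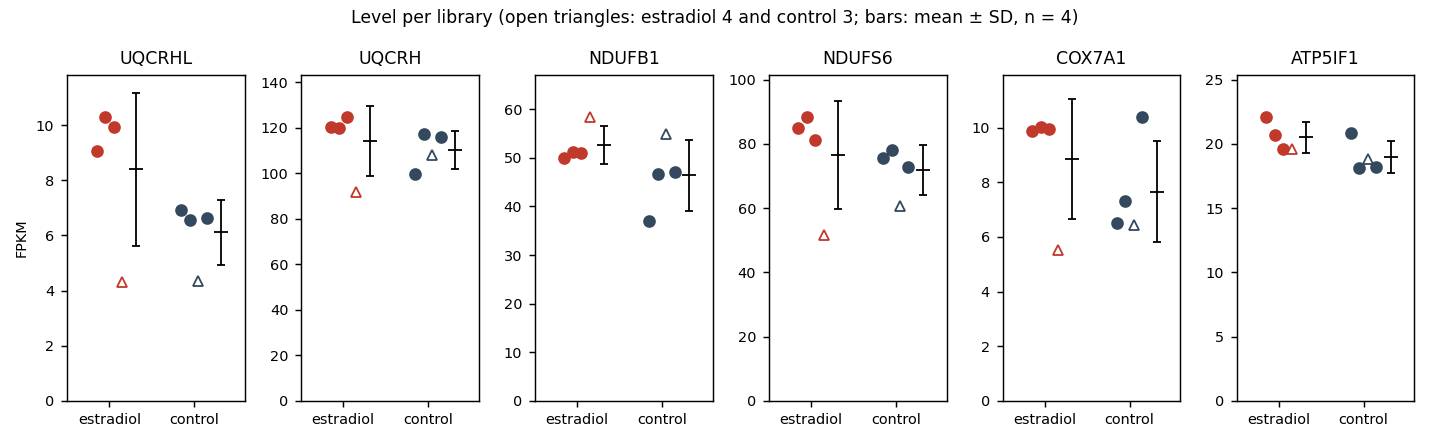
FPKM of 6 members in each library (y axis, linear from 0; x axis, group), with the mean ± SD of 4 libraries beside the points and open triangles for estradiol replicate 4 and control replicate 3. In UQCRHL the triangles stand at 4.30 and 4.35, and the 3 filled estradiol points lie above the 3 filled control points.

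The spread within the groups followed the pair of libraries in part. Estradiol replicate 4 was the lowest of the 8 libraries for 38 of the 75 tested members and the highest for 9. Control replicate 3 was the lowest for 8 and the highest for 13, while control replicate 1, outside the pair, was the lowest for 14. These counts were not made over all genes tested, so they are not shown to be particular to the members. The median deviation of the members from the median of all libraries was -0.28 in estradiol replicate 4 and -0.13 in control replicate 3, on the scale of log2(FPKM + 1), against -0.060 and -0.062 for all genes tested. In estradiol replicate 4 it was -0.37 for complex IV, -0.35 for complex III, -0.28 for complex I and -0.16 for complex V. In control replicate 3 it was -0.19 for complex IV, -0.16 for complex III, -0.15 for complex I and -0.10 for complex V. Across the 75 members, which share the libraries, the same rank correlation was -0.709 in estradiol replicate 4 and -0.730 in control replicate 3. It lay between -0.329 and 0.493 in the other libraries. Over all tested genes with a GC value it was stronger, at -0.857 in estradiol replicate 4 and -0.876 in control replicate 3.

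Members of high GC content were low in these libraries, and those of low GC content were divided. Of the 25 members with the highest GC (53.1% to 69.6%), 24 were lower in estradiol replicate 4 than in every other estradiol library and 22 were lower in control replicate 3 than in every other control library. Of the 25 with the lowest GC (35.0% to 45.2%), 12 were higher in estradiol replicate 4 than in every other estradiol library and 9 were lower. In control replicate 3, 13 of them were higher than in every other control library and 4 were lower. NDUFA5, an accessory subunit of the matrix arm with a GC content of 35.0%, measured 4.78, 4.31, 4.70 and 6.82 FPKM in estradiol libraries, against 5.17, 4.54, 7.89 and 4.02 in control libraries. ATP5F1D, the delta subunit of the central stalk with the highest GC content, measured 40.4, 35.6, 29.7 and 25.8 FPKM in estradiol libraries, against 43.9, 33.0, 25.9 and 35.4 in control libraries. These genes were chosen as the ends of the GC range. Counts by GC content were not made over all genes tested, so they are not shown to be particular to the members.

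**Figure D5:**
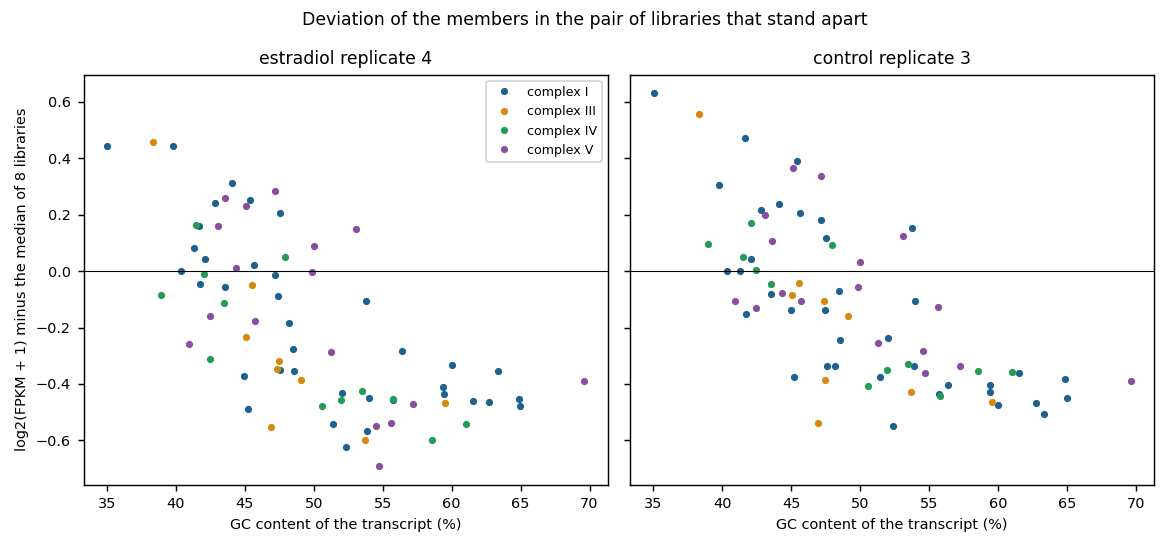
Deviation of each tested member from its median over the 8 libraries (y axis, log2 of FPKM + 1) against the GC content of its longest coding transcript (x axis, %), in estradiol replicate 4 (left) and control replicate 3 (right), coloured by complex. In both panels the 25 members above 53.1% GC have a negative median (-0.46 in estradiol replicate 4 and -0.38 in control replicate 3), and the 25 members below 45.2% scatter around 0.

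Genes that build and regulate the complexes gave the same picture. Of 53 assembly factors, 49 were tested and 0 passed (limma, adjusted over all genes), with a median log2 fold change of 0.03 and positive values in 32. The smallest p belonged to NDUFAF2, a complex I chaperone, at 46.7 ± 3.37 FPKM in estradiol and 42.7 ± 2.69 in control libraries, and NDUFAF1, another complex I factor, at 14.0 ± 0.225 FPKM in estradiol and 13.01 ± 0.654 in control libraries (SD, n = 4 each). On the negative side were COX18, which inserts a complex IV subunit, with a log2 fold change of -0.08, and COX11, a copper delivery factor, with -0.08. Of 12 biogenesis regulators, 10 were tested and 0 passed, with a median of -0.02 and positive values in 4.

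Among the regulators NRF1, a transcription factor of respiratory genes, measured 4.58, 4.98, 4.35 and 4.08 FPKM in estradiol libraries, against 4.91, 5.17, 4.46 and 5.32 in control libraries, a log2 fold change of -0.12 ± 0.09 SE. Its groups overlapped, as did those of TFB1M, a mitochondrial ribosomal RNA methyltransferase (-0.10), TFB2M, a factor of mitochondrial transcription (0.08) and GABPB1, a GABP subunit (0.04). PPARGC1A, the coactivator PGC-1 alpha, averaged 0.00174 FPKM over the 8 libraries, and PPARGC1B 0.175. Subunits and carriers outside the symbol rule did not pass either: CYC1, the cytochrome of complex III, stood at 32.9 ± 5.39 FPKM in estradiol and 31.7 ± 4.61 in control libraries, NDUFAB1, the acyl carrier subunit of complex I, at 60.4 ± 9.80 FPKM in estradiol and 59.9 ± 5.42 in control libraries, and CYCS, cytochrome c, at 36.3 ± 2.40 FPKM in estradiol and 37.3 ± 7.03 in control libraries (SD, n = 4 each).

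Most of the mitochondrially encoded partners were listed above the nuclear members, with ND6 the lowest at a mean of 77.1 FPKM. Their median was 908 ± 145 FPKM in estradiol and 925 ± 145 in control libraries for the 7 genes of complex I, and 5199 ± 397 in estradiol and 5302 ± 389 in control libraries for the 3 genes of complex IV (SD, n = 4 each), and 0 of the 13 passed (limma, adjusted over all genes). By the smallest p, the negative side was led by ND1 with a log2 fold change of -0.06 ± 0.12 SE and COX3 with -0.04 ± 0.11, and the positive side by ND6 with 0.37 ± 0.62 and ND3 with 0.04 ± 0.13. ND6 ranged from 37.8 to 201 FPKM in estradiol libraries and from 29.5 to 171 in control libraries, so the groups overlapped.

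Copies of the members elsewhere in the genome limit how far the levels can be read. Pseudogenes named after a member were listed in the reference tables for 46 of the 82 members, 188 in all, with 18 for COX6C and 12 each for NDUFA5 and NDUFB4. No source used here says how reads that fit both a gene and a copy were counted.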

How the data were processed

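The deposited FPKM table of the authors held 34415 genes in 8 libraries. The submitters' processing notes name fastp 0.20.1 and HTSeq, without their roles. No source used here names the aligner, genome build or strand setting. FPKM keep the GC bias and length choice of the counting. Each library's values were whole multiples of a step, and all 152348 values above 0 were rebuilt from whole reads (tolerance 1e-06), with lengths within 0.01 of a whole base for 98.8% of genes at first and reads multiplied for 290 others. Depth was summed over them.

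Genes with a mean of at least 1 FPKM over the libraries (10720) were tested as log2(FPKM + 1) with limma 3.58.1 in R 4.3.3 (trended variance, two-sided, Benjamini-Hochberg over all genes, threshold 0.05). Fold changes on this scale understate changes of low genes. The estradiol group had 4 libraries and the control group 4. Members under the filter had an exact permutation test of the mean, which with 70 relabellings cannot go below 0.0286. No set was tested. The 95% intervals of fold changes come from the spread between libraries, while the floor of a 0 count covers counting error only.

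Members, lists and tests were chosen with earlier results of these data known. Named members are the 3 highest and the lowest of each complex, the 4 smallest p in each direction, isoform families, core subunits of complexes I, III and V, NDUFA4 and members under the filter with reads. One member counts in every total but is not reported here by name. In each list of other genes, the 2 smallest p in each direction are named. NDUFA5, ATP5F1D, PPARGC1A and PPARGC1B were added after their values were seen, as were NDUFS6, NDUFB2 and NDUFA6. Alternatives covered the pseudocount, filter, scaling, trend, weights, replicate block, each library left out, the pair left out or given a term, recovered reads and gene length. Promoters came from RefSeq (GRCh38.p14), and transcript lengths and GC content from GENCODE transcripts. The shorter NRF1 and YY1 motifs were set after the 10-letter forms had been counted.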

Additional observations from a re-analysis of the deposited data

Results flagged for a closer look

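Within a group, 12 of 80 gene and group combinations checked had 1 library far from the other 3, measured as the gap to the nearest library divided by the range of the group and held to Dixon's 95% critical value. Chance gives about 1 in 20, for genes that vary independently, whereas these share their libraries. The genes checked were named members and not all members. Some of them were named for their level or for a small p, so the count is no rate for the whole set. Estradiol replicate 4 or control replicate 3 was the distant library in 8 of them, and whether their GC-related deviation accounts for this was not tested.

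Estradiol replicate 4 was the low library for COX7A1 (5.54 FPKM, gap share 0.970), UQCRH (91.5 FPKM, 0.853), COX4I1 (117.9 FPKM, 0.844) and ATP5MC2 (20.7 FPKM, 0.843). It was the high library for ATP5F1E (0.614 FPKM, 0.901) and NDUFB1 (58.4 FPKM, 0.846). Control replicate 3 was the low library for NDUFS3 (38.7 FPKM, 0.873) and UQCRHL (4.35 FPKM, 0.866).

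Control replicate 1 was low for COX7A2, at 48.8 FPKM against 59.8 to 62.0 in the other controls (0.834). ATP5MGL was high in control replicate 2, at 0.189 FPKM and 6 reads (0.834). COX6B2 had 1 read in estradiol replicate 2 alone among the estradiol libraries (a gap share of 1), and control replicate 1 was the only control library with 0 reads (0.940). With so few reads the step of a whole read largely sets this share, so the values of COX6B2 and ATP5MGL carry little.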

How the results depend on the processing

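Under all alternatives run, 0 members, 0 assembly factors and 0 biogenesis regulators passed the adjusted threshold. The number of members at an unadjusted p under 0.05 was 9 with array weights (8.28% of all genes), 5 without the pair of libraries, 2 with a term for the pair, 4 without estradiol replicate 4 (84 of all genes, 0.784%), 1 without control replicate 3 (183, 1.71%) and 0 with any other library left out. Over all genes the unadjusted count was 26, against 437 of 23471 with no filter, 4 of 7221 at 5 FPKM, 888 with array weights, 351 with the pair term and 15 to 27 with any library outside the pair left out. The deviations of same-numbered libraries correlated at 0.616, 0.073, -0.478 and -0.737 over all genes, in the order of replicates 1 to 4. Over the members they correlated at 0.604, 0.456, -0.373 and -0.736. Over all genes estradiol replicate 4 correlated at 0.791 with control replicate 3, which carries another number. Whether same-numbered cultures were paired cannot be told from these values. With the replicate block 0 members passed, the median over the members was 0.01 and 11 genes had an unadjusted p under 0.05.

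With 1 library left out the median log2 fold change ran from -0.016 to 0.076 over all members, from -0.027 to 0.065 in complex I, -0.041 to 0.087 in complex III, -0.0040 to 0.105 in complex IV and -0.023 to 0.069 in complex V, so its sign is not settled. UQCRHL ran from 0.23 to 0.61 and NDUFS7 from -0.25 to -0.0046. NDUFB6 ran from -0.157 without control replicate 4 to 0.046 without control replicate 3. Transcript length, added after seeing the data, gave median levels of 49.0 FPKM for complex I, 69.9 for III, 122.7 for IV and 87.7 for V. The complex IV median was 62.6 FPKM with no filter and 65.6 with NDUFA4. Depth limits UQCRHL, COX7A1 and the members under the filter.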

Other observations

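Without estradiol replicate 4 and control replicate 3, the median log2 fold change was 0.09 in complex IV, 0.07 in complex III, 0.03 in complex V and 0.01 in complex I, beside -0.0034 for all genes tested. Of the 12 tested members of complex IV, 0 then had an unadjusted limma p under 0.05, beside 3.88% of all genes. Groups did not overlap for 1 of the 12, beside 9.52%. The members of complex IV with the smallest p were COX7A1 and COX8A, named here for that reason. COX8A averaged 221 ± 11.9 FPKM in estradiol and 205 ± 4.74 in control libraries (SD, n = 3 each). COX7A1 averaged 9.95 ± 0.0686 FPKM in estradiol and 8.08 ± 2.05 in control libraries. Each had a limma adjusted p of 0.992.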
